A study of Mus musculus with 6 samples.

Results

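RAS-MAPK signalling carries growth factor signals from receptor tyrosine kinases through RAS, RAF and MEK to the kinase ERK. Active ERK switches on target genes, some of whose products dampen the pathway again. The RNA of such targets is widely read as a record of pathway output. The feedback genes described here are the Sprouty genes Spry1, Spry2 and Spry4, the Sprouty-related genes Spred1 and Spred2, and the dual-specificity phosphatase genes Dusp4 and Dusp6. The ETS transcription factor genes Etv1, Etv4 and Etv5 are included as targets, not as feedback genes. These 10 genes were chosen by symbol as a readout of growth factor signalling. All 10 were found once in the gene list of every library, among 30406 genes shared by the libraries.

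Nuclei came from whole adrenal glands, taken from C57BL/6 J females that were 10 to 11 months old and carried intact Tmem127 (wild type, WT) or a Tmem127 knockout (KO). Tmem127 is a gene for a membrane protein of endosomes and lysosomes. Each library came from 1 pair of glands, and nuclei were stained with DAPI, sorted and sequenced as 3′ RNA libraries with unique molecular identifiers (UMIs). The labels give 2 KO libraries and 3 WT libraries. The title and the genotype field of 1 further library contradict each other (WT and KO), and its values stand apart under the name unassigned library. The labels name no promoter, Cre driver or deleted exon, so whether the deletion is in every cell type is not known here. No label says that the libraries of a group came from separate litters or days, and p-values measure only the spread between these libraries.

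The libraries held 4825169 to 43377724 UMIs over 2886 to 4653 barcodes, with the fewest in KO replicate 2 and the most in WT replicate 1. After filtering, 21035 nuclei were sorted by marker genes into cell classes. The ending "-like" marks a name given from markers alone, and the 11 classes in which no grouped library had under 20 nuclei were compared. Levels are given in CPM, the UMIs of a gene per 1000000 UMIs of the class in that library, and are compared between classes for 1 gene at a time. Zona fasciculata-like nuclei did not mix across libraries: cluster 7 held 97.9% and 99.5% of this class in KO replicate 1 and WT replicate 1, cluster 21 held 94.3% and 97.3% in KO and WT replicate 2, and cluster 25 held 92.7% and 93.2% in WT replicate 3 and the unassigned library. Tmem127 RNA stood at 45.9 and 45.0 CPM in all nuclei of the KO libraries, at 38.0, 38.2 and 36.1 in WT and at 36.4 in the unassigned library. A 3′ tag can lie outside the deleted part, so this level checks no label.

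Sprouty proteins act below receptor tyrosine kinases and restrain the activation of RAS and RAF. SPRED proteins bring the RAS GTPase-activating protein neurofibromin to the membrane, where it switches RAS off. DUSP6 removes the activating phosphates from ERK in the cytoplasm and DUSP4 does so in the nucleus. ETV1, ETV4 and ETV5 form the PEA3 subfamily of ETS factors, which are produced downstream of fibroblast growth factor signals in many tissues and bind DNA at a GGA core.

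The promoter windows of 4 of these genes are shown because they come from genes with different leading cell classes: Spry1 and Spry2 (pericyte or smooth muscle-like), Dusp6 (macrophage-like) and Etv1 (zona glomerulosa-like). Each window runs from 250 bases before to 50 bases after a gene's start, is taken from RefSeq on GRCm38.p6 and is written 5′ to 3′ on the gene's strand. The Spry1 window is chr3:37639697-37639996 (plus strand), the Spry2 window chr14:105896770-105897069 (minus strand), the Dusp6 window chr10:99262981-99263280 (plus strand) and the first Etv1 window chr12:38779832-38780131 (plus strand). Capitals mark the ETS core letters GGAAG on either strand, so that CTTCC is the same motif read on the other strand.
Spry1: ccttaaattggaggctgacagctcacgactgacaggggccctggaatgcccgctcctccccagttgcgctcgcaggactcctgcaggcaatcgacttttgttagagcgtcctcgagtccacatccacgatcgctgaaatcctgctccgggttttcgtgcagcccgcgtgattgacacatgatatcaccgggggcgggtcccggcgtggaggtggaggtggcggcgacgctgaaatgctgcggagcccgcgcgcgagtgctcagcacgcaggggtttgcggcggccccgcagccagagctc
Spry2: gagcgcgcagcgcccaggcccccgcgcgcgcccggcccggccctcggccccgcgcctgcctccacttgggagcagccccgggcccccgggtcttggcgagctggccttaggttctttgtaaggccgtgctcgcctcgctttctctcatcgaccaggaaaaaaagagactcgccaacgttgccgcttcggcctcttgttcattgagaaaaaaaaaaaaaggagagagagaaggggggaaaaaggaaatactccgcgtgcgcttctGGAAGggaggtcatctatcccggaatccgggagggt
Dusp6: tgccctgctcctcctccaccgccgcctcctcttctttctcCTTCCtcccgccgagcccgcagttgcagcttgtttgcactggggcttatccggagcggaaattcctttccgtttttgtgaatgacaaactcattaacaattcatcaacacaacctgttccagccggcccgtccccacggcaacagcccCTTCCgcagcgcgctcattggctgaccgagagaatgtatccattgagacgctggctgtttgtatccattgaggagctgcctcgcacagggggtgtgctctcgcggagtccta
Etv1: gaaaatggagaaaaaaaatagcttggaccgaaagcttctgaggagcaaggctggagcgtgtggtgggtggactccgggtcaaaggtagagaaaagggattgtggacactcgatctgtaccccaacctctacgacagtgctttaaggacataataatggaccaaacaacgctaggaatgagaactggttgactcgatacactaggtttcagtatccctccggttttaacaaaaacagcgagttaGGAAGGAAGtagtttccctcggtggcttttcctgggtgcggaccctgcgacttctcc
The Spry1 window held none of these letters, the Spry2 window held 1 match, the Dusp6 window 2 and the Etv1 window 2 that overlap. Windows were at hand for 7 of the 10 genes, 9 windows in all. The Spred1 window held 2 matches, the Spred2 window 5, the second Etv1 window 0, and the Etv5 windows 0 and 4. The GGAAG letters occur in 71.4% of 32851 such windows genome-wide, so their presence sets none of these genes apart. The longer ETS letters CCGGAAG (8.86% of windows), the AP-1 letters TGANTCA (7.81%), the cyclic AMP response element TGACGTCA (1.79%) and the CArG box bound by serum response factor (1.63%) occurred in none of the 9 windows on either strand.

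**Figure D1:**
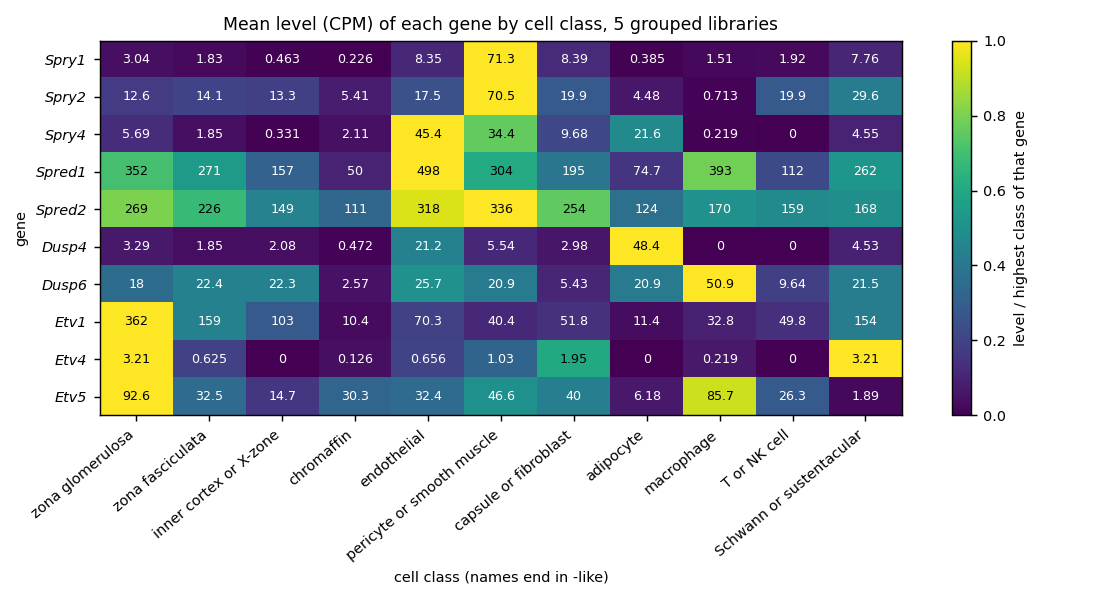
Mean level of each gene (rows) in 11 cell classes (columns) over the 5 grouped libraries. The printed values are CPM and the colour is the level divided by that gene's highest class, so colours compare classes within 1 gene. Spry1 and Spry2 peak in pericyte or smooth muscle-like nuclei, Etv1 in zona glomerulosa-like nuclei, and the chromaffin-like column holds the lowest value for 5 of 10 genes.

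The levels by class are a description with no test. Spry1 (ENSMUSG00000037211, chr3:37639947-37644598, plus strand, mm10 with GENCODE vM21 coordinates) was highest in pericyte or smooth muscle-like nuclei, a class named from markers of the contractile cells around vessels. There it stood at 67.7 and 102 CPM in KO, at 59.8, 94.9 and 31.7 in WT and at 48.7 in the unassigned library. This class was the highest in 5 of 5 grouped libraries, and its lowest library lay above the highest library of the next class, capsule or fibroblast-like nuclei, whose mean was 8.39 CPM ± 3.20 (SD, n = 5). Endothelial-like nuclei followed at a mean of 8.35 CPM, within the spread of the capsule value. The name of the leading class is not clear-cut: 6 of 10 pericyte or smooth muscle markers passed in it, and 7 capsule or fibroblast markers did. Summed pericyte or smooth muscle markers had a mean of 1707 CPM there and 211 in capsule or fibroblast-like nuclei. Summed capsule or fibroblast markers had means of 2410 and 3279 CPM in these classes. In chromaffin-like nuclei, the adrenaline and noradrenaline cells of the medulla, Spry1 was at 0 in 4 of 5 grouped libraries and at 1.13 CPM in WT replicate 1. A count of 0 allows levels of up to 1.204 CPM in KO replicate 1 and 4.33 CPM in KO replicate 2, taking 3 UMIs as the limit and counting error only. On the opposite strand, Gm42922 overlaps Spry1, and the sources used here do not say whether the counting used strand.

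Spry2 (ENSMUSG00000022114, chr14:105891947-105896819, minus strand) was also highest in pericyte or smooth muscle-like nuclei, at 56.4 and 159 CPM in KO, at 57.0, 55.3 and 24.6 in WT and at 67.6 in the unassigned library. KO replicate 2 stood far above the other 4 and WT replicate 3 was the lowest, so this class overlapped with the next, Schwann or sustentacular-like nuclei, at a mean of 29.6 CPM ± 5.24 (SD, n = 5). Spry2 was more widely detected than Spry1: the 3 cortical steroid-making classes had means of 12.6 CPM (zona glomerulosa-like), 14.1 (zona fasciculata-like) and 13.3 (inner cortex or X-zone-like). Macrophage-like nuclei had UMIs of Spry2 in 1 of 5 grouped libraries, for a mean of 0.713 CPM.

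Spry4 (ENSMUSG00000024427, chr18:38586247-38601415, minus strand) led in vessels, with a different order from Spry1. In endothelial-like nuclei it stood at 43.5 and 46.9 CPM in KO, at 52.3, 49.8 and 34.6 in WT and at 40.04 in the unassigned library. Pericyte or smooth muscle-like nuclei came next at a mean of 34.4 CPM and overlapped with them, and adipocyte-like nuclei followed at 21.6. T or NK cell-like nuclei had 0 UMIs of Spry4 in all 6 libraries, which allows levels of up to 11.4 CPM in the deepest library and up to 116 CPM in the shallowest, and the zona fasciculata-like mean was 1.85 CPM.

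Spred1 (ENSMUSG00000027351, chr2:117121374-117182279, plus strand) and Spred2 (ENSMUSG00000045671, chr11:19924375-20024026, plus strand) had a flatter profile than the Sprouty genes. Spred1 in endothelial-like nuclei stood at 450 and 513 CPM in KO, at 571, 526 and 430 in WT and at 500.2 in the unassigned library. It was lowest in chromaffin-like nuclei, at 51.8 and 46.2 CPM in KO, at 55.2, 45.5 and 51.5 in WT and at 37.6 in the unassigned library. The endothelial-like and chromaffin-like ranges lay far apart, while each of the 10 neighbouring pairs in the order of the 11 classes overlapped. Spred2 had its highest mean in pericyte or smooth muscle-like nuclei, 336 CPM ± 73.4 (SD, n = 5), and endothelial-like nuclei at a mean of 318 overlapped with them. Its lowest mean was again in chromaffin-like nuclei, at 119 and 111 CPM in KO and at 114, 114 and 98.8 in WT, with 75.5 in the unassigned library.

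Dusp4 (ENSMUSG00000031530, chr8:34807297-34819894, plus strand) was found mainly in adipocyte-like and endothelial-like nuclei. In adipocyte-like nuclei it stood at 48.0 and 37.4 CPM in KO, at 76.2, 19.1 and 61.6 in WT and at 79.2 in the unassigned library. In endothelial-like nuclei the mean was 21.2 CPM, and the ranges of these classes overlapped. Macrophage-like nuclei had 0 UMIs of Dusp4 in all 6 libraries, which allows levels of up to 3.28 CPM in WT replicate 1 and up to 23.0 CPM in KO replicate 2. Dusp6 (ENSMUSG00000019960, chr10:99263231-99267489, plus strand), the other phosphatase, was highest in that same macrophage-like class, at 75.3 and 61.2 CPM in KO, at 48.1, 35.9 and 33.9 in WT and at 32.0 in the unassigned library. Endothelial-like (25.7 CPM), zona fasciculata-like (22.4) and inner cortex or X-zone-like nuclei (22.3) followed with overlapping ranges. Chromaffin-like nuclei had the lowest Dusp6 mean, 2.57 CPM ± 1.36 (SD, n = 5).

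Etv1 (ENSMUSG00000004151, chr12:38779380-38870484, plus strand) was highest in zona glomerulosa-like nuclei, a class named from markers of the aldosterone-producing outer cortex. It stood there at 288 and 365 CPM in KO, at 373, 381 and 405 in WT and at 409 in the unassigned library. Every one of these values lay above the highest zona fasciculata-like library, and the mean of 362 CPM was 2.27 times the zona fasciculata-like mean of 159. Schwann or sustentacular-like nuclei, the glial cells of the medulla and its nerves, followed at 154 CPM and overlapped with the zona fasciculata. Etv1 in chromaffin-like nuclei was at 8.03 and 14.4 CPM in KO and at 9.04, 7.24 and 13.4 in WT. Summed markers of the zona glomerulosa were at a mean of 8332 CPM in the zona glomerulosa-like class and 796 in the chromaffin-like class, and the part of free RNA in the low Etv1 level of chromaffin-like nuclei was not tested. The zona glomerulosa-like class was mixed: the marker Cyp11b2 passed in its clusters 0 and 23 but not in clusters 4 and 22. Of 14 markers, 5 passed in cluster 4 and 6 in cluster 22. Levels and folds of this class are therefore not those of aldosterone-producing cells alone.

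Etv5 (ENSMUSG00000013089, chr16:22381309-22439719, minus strand) had a pair of leading classes. In zona glomerulosa-like nuclei it stood at 74.1 and 86.5 CPM in KO, at 136, 96.3 and 70.4 in WT and at 77.9 in the unassigned library. In macrophage-like nuclei it stood at 88.2 and 115 CPM in KO, at 73.3, 71.7 and 80.2 in WT and at 64.0 in the unassigned library. The ranges of these classes overlapped over the grouped libraries. Pericyte or smooth muscle-like nuclei followed, with a range from 22.7 to 71.5 CPM that reached above the lowest zona glomerulosa-like library and ended just under the lowest macrophage-like one. Etv4 (ENSMUSG00000017724, chr11:101769742-101785371, minus strand) was scarce. In zona glomerulosa-like nuclei it stood at 3.14 and 1.73 CPM in KO, at 4.57, 2.997 and 3.61 in WT and at 2.16 in the unassigned library, and no class mean was above 3.21 CPM.

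**Figure D2:**
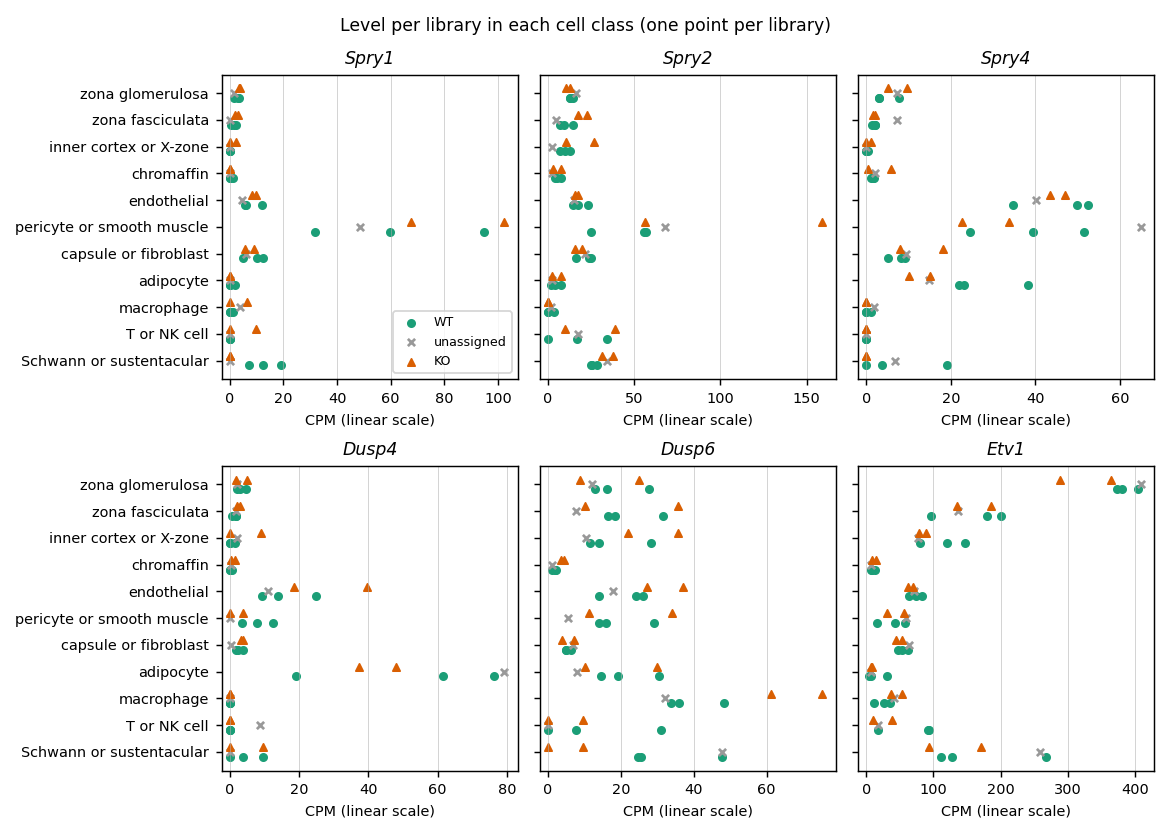
Level of 6 genes in each cell class, in CPM on linear axes, with 1 point per library: triangles for KO (n = 2), circles for WT (n = 3) and a cross for the unassigned library. Pericyte or smooth muscle-like nuclei hold the highest points of Spry1, and all 6 zona glomerulosa-like points of Etv1 lie between 288 and 409 CPM.

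Nuclei were also compared at equal depth. Chromaffin-like nuclei held more UMIs than most classes, with median counts of 2318 to 14846 per library against 1777 to 11054 in zona glomerulosa-like nuclei. Each nucleus was therefore thinned to 1000 UMIs, which left out 2029 shallower nuclei. The share of nuclei with Etv1 was then a mean of 29.2% in zona glomerulosa-like and 0.647% in chromaffin-like nuclei, against 69.5% and 6.56% before thinning. The share with Spred1 was 37.2% in endothelial-like and 5.21% in chromaffin-like nuclei, against 50.7% and 26.7% before thinning. The highest class was the same as by CPM for 8 of the 10 genes, and for Spred2 and Etv5 it moved to endothelial-like and macrophage-like nuclei.

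Chromaffin-like nuclei had the lowest mean of the 11 classes for 5 of the 10 genes: Spry1, Spred1, Spred2, Dusp6 and Etv1. For each of these genes the range overlapped with that of the next lowest class. That class was capsule or fibroblast-like for Dusp6 and adipocyte-like for the others. Etv5 was not lowest in chromaffin-like nuclei, at 26.9 and 24.5 CPM in KO, at 22.2, 40.4 and 37.6 in WT and at 38.2 in the unassigned library. Their chromaffin identity was clear from the marker genes, since 15 of 15 chromaffin markers passed in the larger of the chromaffin-like clusters and the summed markers reached a mean of 8601 CPM, against 461 or less in the other classes.

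Within the endothelial-like class, Spry4 differed among clusters. It was at a mean of 63.5 CPM in the cluster led by Rgcc, Cfap43 and Chrm3 and at 57.6 in cluster 1, and at 26.0, 29.8 and 20.2 CPM in the clusters led by Car8, by AC167229.1 and by Prom1. Per library, the Rgcc cluster stood at 47.6 and 59.5 CPM in KO, at 105, 64.5 and 40.6 in WT and at 48.2 in the unassigned library. The Rgcc cluster held most endothelial-like nuclei of KO replicate 2, WT replicates 2 and 3, and cluster 1 held most of those of KO replicate 1 and WT replicate 1, so these 2 clusters split by library. Dusp6 had its highest cluster mean, 54.3 CPM, in the cluster led by AC167229.1, Cyp26b1 and Esm1, but that mean rested on KO replicate 2, with 171 CPM from 8 UMIs (exact 95% Poisson interval 73.9 to 337). The other libraries there had 31.1 CPM in KO replicate 1 and 23.3, 33.02 and 12.8 in WT.

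Within the capsule or fibroblast-like class, Etv5 stood out in the cluster led by Clca3a1, Ptprq and Tmeff2. It stood at 71.9 and 93.9 CPM there in KO, at 83.0, 87.7 and 74.1 in WT and at 61.5 in the unassigned library, while the cluster led by Rspo3 had a mean of 24.9 and the one led by Sorcs3 a mean of 39.9. All 6 libraries of the Clca3a1 cluster therefore stood in a narrow range for Etv5. Spry1 was at 19.5 CPM in the Clca3a1 cluster, 17.1 in the Rspo3 cluster and 2.02 in the Sorcs3 cluster.

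**Figure D3:**
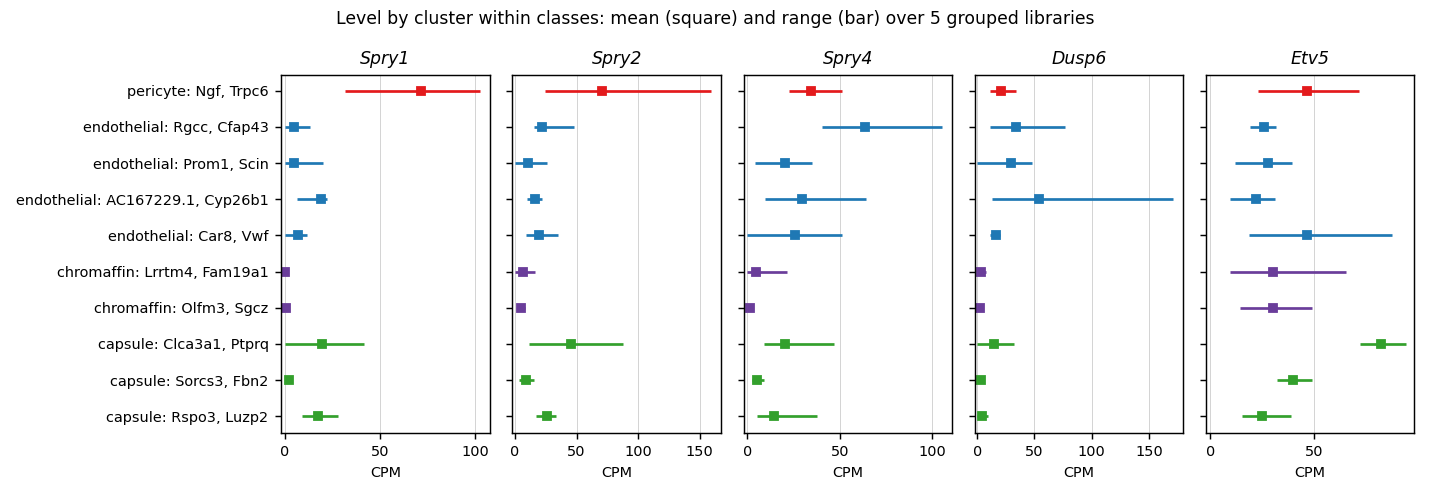
Level of 5 genes in the clusters of 4 cell classes that held at least 20 nuclei in each grouped library, in CPM, with the mean as a square and the range over 5 libraries as a bar. Etv5 is highest in the capsule cluster led by Clca3a1, and the long Dusp6 bar of an endothelial cluster is 1 library at 171 CPM.

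Across the 11 class means, on a log2(CPM + 1) scale, the genes did not share 1 profile. Pearson's r was highest for Dusp4 with Spry4 (0.84), Spred2 with Spry1 (0.80), Spred2 with Spred1 (0.80) and Spry2 with Spry1 (0.74), and lowest for Etv5 with Dusp4 (-0.41). Among the PEA3 factors, r was 0.65 for Etv4 with Etv1 and 0.09 for Etv5 with Etv1. Etv4 was at 0 CPM in T or NK cell-like, adipocyte-like and inner cortex or X-zone-like nuclei of the grouped libraries. Its Schwann or sustentacular-like mean of 3.21 CPM, level with that of zona glomerulosa-like nuclei, came from 2 UMIs. The r values of Etv4, here and below, therefore rest on few UMIs. These correlations describe 11 points that share libraries and carry no test. Among 13131 other genes with at least 10 CPM in some class, the profile most like that of Spry1 was Ctgf (r = 0.93), which encodes a matricellular protein, followed by Plekhg2 (0.93) and Bmp6 (0.93). The most similar to Spry4 were Amotl1 (0.92), Inhbb (0.92) and Hoxaas3 (0.92), and to Spry2 Deaf1 (0.91), St5 (0.89) and Arl1 (0.88). For Spred1 these were Alpk1 (0.93), Csnk1e (0.91) and Bst2 (0.89), and for Spred2 they included Fam198b (0.90) and Jcad (0.89). Dusp4 was most like Ptprm (0.92), Ubr3 (0.89) and Uqcrc2 (0.89), and Dusp6 most like Rhbdf2 (0.90), the ETS repressor gene Etv6 (0.87) and Mgme1 (0.85). Etv1 was most like Efhd1 (0.91), Apopt1 (0.90) and Tbx3os1 (0.89), Etv4 most like Sulf1 (0.96), Cep112 (0.92) and Gm4221 (0.92), and Etv5 most like Tmem51 (0.91), Nisch (0.89) and Stam2 (0.89).

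The comparison of KO with WT asks whether the transcript readout of RAS-MAPK output differs without Tmem127. No member passed in any class. Folds are on the log2 scale, KO relative to WT, and come from edgeR's quasi-likelihood test with the counting annotation as a batch term; ± is the standard error (SE), and p-values were adjusted by the Benjamini-Hochberg method over all genes tested in the class. Members that passed the filter on low counts gave 65 gene and class pairs over the 11 classes, and 10 more in all nuclei. Of these 75, 0 had an adjusted p under 0.05, beside 0.0653% of all 88886 gene and class pairs in the 11 classes. By class, the share of all genes that passed was 0.62% in T or NK cell-like, 0.253% in adipocyte-like, 0.113% in zona glomerulosa-like, 0.069% in macrophage-like, 0.0289% in capsule or fibroblast-like and 0.00949% in endothelial-like nuclei, and 0% in the other classes and in all nuclei. The lowest adjusted p was 0.499, and 4 of the 65 pairs had an unadjusted p under 0.05, which is 6.15% beside 5.22% of all pairs. In all nuclei 2 of 10 members, Spred1 and Etv1, had one, beside 7% of all genes. A sum over all nuclei also depends on the share of each class in a library. For example, 47 nuclei of KO replicate 1 and 1 of WT replicate 2 were hepatocyte-like, and 0 in each other library. The part of class shares in the folds of all nuclei was not tested. DESeq2 on the same counts called 0 as well, with a lowest adjusted p of 0.754. The groups did not overlap in 15 of the 65 pairs, or 23.1%, beside 20% of all pairs. KO lay above WT in 7 of these and below it in 8, and 22 of the 65 folds were above 0.

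**Figure D4:**
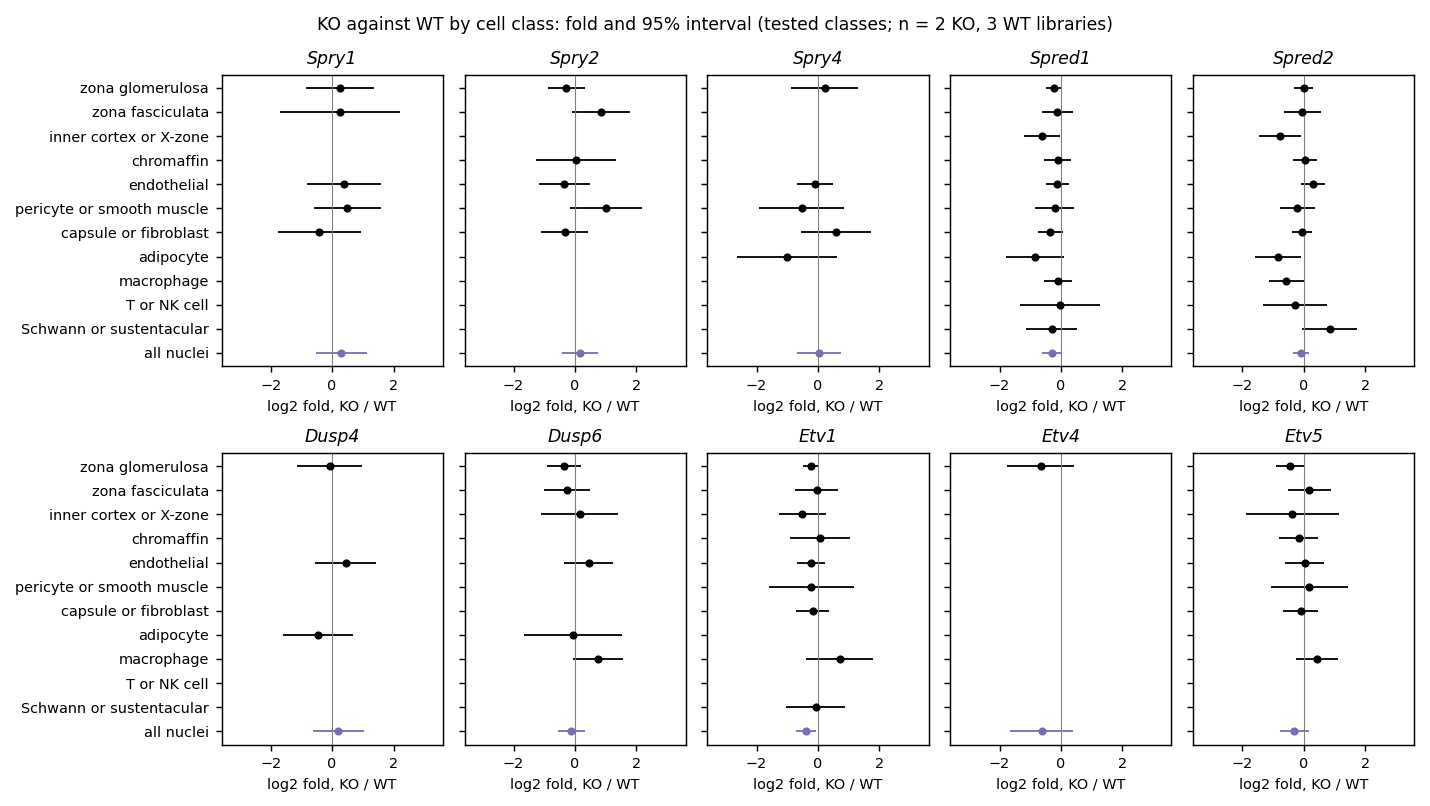
Log2 fold of KO against WT for each gene (panels) in the classes where it was tested (rows), with its 95% interval (2 KO and 3 WT libraries). All 11 class values of Spred1 lie at or below 0, and most intervals in every panel, that of Spred1 among them, include 0.

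Spred1 had a fold below 0 in 11 of 11 classes. The values ran from -0.84 to -0.02 with a median of -0.21, and the classes share the same libraries, so they are not separate observations. The count rested on the libraries counted with Cell Ranger 4.0.0: it was 7 of 11, with a median of -0.05, without KO replicate 1 and 7 of 10, with a median of -0.06, without WT replicate 1. That count was 10 of 11 with DESeq2, 10 of 11 with the unassigned library taken as WT, and 9 of 10 with the members and pathway lists left out of clustering. In all nuclei Spred1 was at 260 and 242 CPM in KO, at 353, 259 and 262 in WT and at 212 in the unassigned library. KO replicate 1 lay within the WT range, KO replicate 2 below it, and WT replicate 1 was the highest. The fold in all nuclei was -0.30 ± 0.13 (unadjusted p = 0.0487, adjusted p = 0.707). In zona glomerulosa-like nuclei both KO libraries, at 313 and 335 CPM, lay below all WT libraries, at 416, 340 and 355, with a fold of -0.23 ± 0.12 (adjusted p = 0.556) and a 95% interval from -0.49 to 0.04. Of all genes tested in that class, 10.2% had both KO libraries below every WT library. The lowest unadjusted p of Spred1 was in inner cortex or X-zone-like nuclei, at 161 and 89.0 CPM in KO, at 226, 164 and 146 in WT and at 94.5 in the unassigned library (fold -0.61 ± 0.27, unadjusted p = 0.0428, adjusted p = 1). KO replicate 1 lay within the WT range there and KO replicate 2 rested on 10 UMIs.

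Spred2 went in both directions. Its fold was -0.84 ± 0.34 in adipocyte-like nuclei (unadjusted p = 0.0271, adjusted p = 0.545), where it stood at 88.0 and 82.3 CPM in KO and at 171, 111 and 166 in WT. In inner cortex or X-zone-like nuclei it stood at 106 and 88.9 CPM in KO and at 151, 154 and 242 in WT (fold -0.77 ± 0.32, unadjusted p = 0.0309, adjusted p = 1). In macrophage-like nuclei it stood at 136 and 115 CPM in KO and at 189, 239 and 173 in WT (fold -0.57 ± 0.27, unadjusted p = 0.0481, adjusted p = 0.967). The KO libraries lay below every WT library in these 3 classes, as did 13.3%, 8.5% and 11.5% of all genes tested there. In endothelial-like nuclei the order was the opposite, at 382 and 343 CPM in KO and at 309, 331 and 226 in WT (fold 0.29 ± 0.18, adjusted p = 1). Both KO libraries lay above every WT library for 10.4% of all genes tested in that class. The unassigned library had 55.1, 233, 186 and 254 CPM in these 4 classes.

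Macrophage-like nuclei, in which Dusp6 and Etv5 were at or near their highest, had both KO libraries above every WT library for Dusp6, Etv1 and Etv5 and below every WT library for Spred2. This is 4 of 5 members tested there, beside 20.5% of all genes tested in that class. The Dusp6 values given above, 75.3 and 61.2 against 48.1, 35.9 and 33.9 CPM, gave a fold of 0.74 ± 0.39 (adjusted p = 0.967). Etv1 stood at 36.6 and 53.6 CPM in KO, at 26.3, 12.0 and 35.6 in WT and at 41.4 in the unassigned library, for a fold of 0.70 ± 0.52 (adjusted p = 0.993). Etv5 had a fold of 0.44 ± 0.32 (adjusted p = 0.993). None of these folds exceeded the spread between libraries by the test.

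In zona glomerulosa-like nuclei all 10 members were tested, 2 folds were above 0 and 8 below. For Etv1 both KO libraries lay below every WT library, by the values given above, with a fold of -0.24 ± 0.12 (adjusted p = 0.510). Of all genes tested in that class, 10.2% had both KO libraries below every WT library. In all nuclei Etv1 stood at 144 and 152 CPM in KO, at 210, 185 and 161 in WT and at 171 in the unassigned library (fold -0.39 ± 0.14, unadjusted p = 0.0263, adjusted p = 0.697). The zona glomerulosa-like fold of Etv5 was -0.44 ± 0.21, with the lowest adjusted p of all members, 0.499. It rested on 1 pair of libraries: it was 0.07 without KO replicate 1 and 0.08 without WT replicate 1, and WT replicate 1 had the highest Etv5 level. Cluster 0 held most zona glomerulosa-like nuclei of KO replicate 1 and WT replicate 1, and cluster 22 held most of those of the other libraries.

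In chromaffin-like nuclei 5 members passed the filter, and their folds were 0.03 ± 0.59 for Spry2, -0.11 ± 0.20 for Spred1, 0.04 ± 0.17 for Spred2, 0.07 ± 0.44 for Etv1 and -0.16 ± 0.28 for Etv5. The 95% interval was -0.57 to 0.34 for Spred1 and -0.34 to 0.42 for Spred2, so a change of 1 log2 unit in either direction lay outside both, while the interval of Spry2 ran from -1.29 to 1.35. Dusp6 did not pass the filter there, at 3.61 and 4.33 CPM in KO, at 1.81, 2.07 and 1.03 in WT and at 1.01 in the unassigned library. KO replicate 2 rested on 3 UMIs of Dusp6, and its exact 95% Poisson interval, 0.892 to 12.6 CPM, took in all other libraries. In a joint fit of chromaffin-like, zona glomerulosa-like and zona fasciculata-like nuclei, the Dusp6 effect of KO was higher in chromaffin-like than in zona glomerulosa-like nuclei by 1.49 ± 0.64 (log2, unadjusted p = 0.0328, adjusted p = 1). The Spry2 effect was lower in zona glomerulosa-like than in zona fasciculata-like nuclei by a difference of -1.04 ± 0.48 (unadjusted p = 0.0450, adjusted p = 1). These were the only member differences with an unadjusted p under 0.05. Of the 8 members in this fit 0 passed in any of the 3 class pairs with edgeR or with DESeq2, beside 0% of 12973 genes with edgeR.

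Other values of some size stayed within their error. Spry2 in zona fasciculata-like nuclei was at 17.6 and 22.5 CPM in KO, at 14.4, 9.15 and 6.77 in WT and at 4.38 in the unassigned library (fold 0.85 ± 0.43, adjusted p = 0.998). Spry2 in pericyte or smooth muscle-like nuclei had a fold of 1.01 ± 0.55 (adjusted p = 0.999), which became -0.03 without KO replicate 2. With the batch term kept, the latter fit set KO replicate 1 against WT replicate 1 alone. Spry4 in adipocyte-like nuclei was at 10.0 and 15.0 CPM in KO, at 22.0, 38.1 and 23.1 in WT and at 14.9 in the unassigned library (fold -1.01 ± 0.76, adjusted p = 0.852). The highest folds of Dusp4 and Spry1 were 0.44 ± 0.46 in endothelial-like and 0.49 ± 0.50 in pericyte or smooth muscle-like nuclei.

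Other genes of the pathway were read from 4 lists: 20 receptors, 22 ligands, 20 genes of the RAS-RAF-MEK-ERK core with its adaptors, and 20 other ERK-induced targets. Egr1, an immediate early transcription factor, was the only list gene that passed in any class: it rose in adipocyte-like nuclei (fold 4.42 ± 0.74, adjusted p = 0.0300). The call was lost with DESeq2 (adjusted p = 0.998), without the batch term (0.778) and with the unassigned library taken as WT (0.149), and without KO replicate 2 Egr1 did not pass the filter. The rise was in 1 library. Egr1 stood there at 307 CPM in KO replicate 2, at 0 in KO replicate 1, at 0, 26.7 and 5.78 in WT and at 10.3 in the unassigned library. KO replicate 2 also had the highest Egr1 level in all nuclei, 126 CPM, while KO replicate 1 was at 27.4, WT at 15.1, 19.4 and 14.0 and the unassigned library at 49.9.

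In chromaffin-like nuclei the core list had a median fold of 0.01 over 20 genes, beside 0.02 for all genes. The list of other ERK-induced targets was written with earlier results of these data known, so its counts are a description and no test. Its median fold was 0.62 over 13 tested genes, of which 0 passed. Among these targets 7 had an unadjusted p under 0.05, all with folds above 0, beside 5.23% of all genes in either direction. Fos, an immediate early AP-1 subunit, led them, at 77.1 and 118 CPM in KO, at 20.3, 4.14 and 9.78 in WT and at 21.5 in the unassigned library (fold 2.79 ± 0.41, adjusted p = 0.123). Egr1 stood at 149 and 431 CPM in KO, at 67.4, 92.1 and 65.9 in WT and at 121 in the unassigned library (fold 1.87 ± 0.28, adjusted p = 0.123). Both KO libraries lay above every WT library for both genes, as for 12.4% of all genes tested in the class. DESeq2 called both genes (adjusted p = 3.54e-06 for Fos and 2.89e-05 for Egr1), as did edgeR without the filter on low counts. Without KO replicate 2 the folds were 1.87 and 1.09. With the batch term kept, that fit set KO replicate 1 against WT replicate 1 alone, since the other batch then held no KO library. Among the receptors the smallest p were those of Erbb4 (-0.72 ± 0.18, adjusted p = 0.730) and Flt1 (-0.74 ± 0.53), among the ligands those of Kitl (1.04 ± 0.34) and Fgf10 (-1.21 ± 0.63), and in the core those of Nf1, which encodes the neurofibromin that SPRED proteins bind (-0.34 ± 0.16), and Hras (1.31 ± 0.66). These adjusted p were 0.924 but for Erbb4.

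In zona glomerulosa-like nuclei the other ERK-induced targets had a median fold of 0.34 over 16 genes, with Myc (0.59 ± 0.23, adjusted p = 0.438) and Dusp1 (0.69 ± 0.31, adjusted p = 0.477) in front. The smallest adjusted p of the lists there was that of the ligand gene Fgf1 (-0.64 ± 0.14, adjusted p = 0.125), followed by Pdgfb among the ligands (0.49 ± 0.31). Ntrk3 (-0.71 ± 0.19, adjusted p = 0.276) and Egfr (1.21 ± 0.53, adjusted p = 0.469) led the receptors, and Rasa1 (-0.33 ± 0.12, adjusted p = 0.412) and Araf (0.23 ± 0.11, adjusted p = 0.494) the core. In zona fasciculata-like nuclei every list gene had an adjusted p of 0.998. The leading values were Egr1 (2.35 ± 0.62), Dusp1 (1.65 ± 0.56), Fgfr4 (-0.80 ± 0.39), Insr (-0.39 ± 0.26), Pdgfb (0.65 ± 0.31), Fgf1 (-0.75 ± 0.42), Braf (-0.48 ± 0.30) and Map2k2 (0.24 ± 0.22). The unassigned library and KO replicate 2 had the highest zona fasciculata-like Egr1, at 62.2 and 38.9 CPM, while KO replicate 1 was at 8.003 and WT at 4.47, 3.66 and 2.54. KO replicate 2 was also the library with the fewest UMIs, and the part of depth in these levels was not tested.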

How the data were processed

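Single-nucleus RNA was measured in 6 adrenal libraries. The authors deposited raw UMI counts for each barcode. The submitters' processing notes name Cell Ranger, mm10 and Seurat. Per the file headers, Cell Ranger 4.0.0 counted KO replicate 1 and WT replicate 1, over 32285 genes, and version 3.1.0 the other libraries, over 31053 genes. The sources used here do not say whether introns or strand entered the counting. The lowest deposited barcode of each library held 500 to 511 UMIs, and 72 barcode sequences occurred in more than 1 library.

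Barcodes with under 300 genes or over 5% mitochondrial UMIs were removed (48 of 21724), then 641 scored as doublets with Scrublet at a rate of 0.8% per 1000 barcodes. The 21035 nuclei were clustered with scanpy 1.11.5 (2000 variable genes, among them 0 of the 10 members, 30 principal components, Harmony by library, Leiden resolution 0.8) into 27 clusters. Clusters were named from marker lists, of which at least 3 markers had to pass. Nuclei are not replicates: UMI counts were summed per library and class. Levels are CPM of these sums.

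KO (n = 2) and WT (n = 3) sums were compared with edgeR 4.0.16 in R 4.3.3 by the quasi-likelihood test with TMM factors, filterByExpr and the Cell Ranger version as batch term, two-sided, with Benjamini-Hochberg adjustment over all genes of a class and a threshold of 0.05. The differences of the KO effect between classes came from 1 fit with an interaction term and libraries as blocks. DESeq2 1.42.0, other scalings, filters, clusterings, doublets kept and leaving out each library were the alternatives. The edgeR fits were tested on simulated counts for the same genes and libraries, with 200 genes changed by 2 log2 units. All genes of a class were given the same spread between libraries, and no batch effect was simulated. For the difference between classes that spread was a fixed value, not taken from the data. The shares recovered therefore hold for these settings and do not measure power in the real counts. The share recovered ran from 65% in T or NK cell-like nuclei to 92.5% in all nuclei. For the difference of chromaffin-like minus zona fasciculata-like nuclei it was 48%. Smaller changes were not simulated. Intervals of levels cover counting error only.

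The members, the pathway lists and the marker lists were chosen with earlier results of these data known. Named genes were the 10 members, the list genes that passed, otherwise the 2 of each list with the smallest p in chromaffin-like, zona glomerulosa-like and zona fasciculata-like nuclei, and the 3 genes with the profile most like each member, of which 1 is not reported here. Classes with fewer nuclei than 20 in a grouped library were not tested. Promoter windows and gene names came from RefSeq tables. RefSeq windows were matched by symbol.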

Additional observations from a re-analysis of the deposited data

Results flagged for a closer look

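The Spred2 fold of KO against WT had opposite directions in different classes, with every library of KO on one side of WT. The endothelial-like fold lay above the adipocyte-like fold by 1.13, above the inner cortex or X-zone-like fold by 1.06, above the macrophage-like fold by 0.864 and above the T or NK cell-like fold by 0.573, all on the log2 scale. The Etv1 fold in macrophage-like nuclei lay above that in zona glomerulosa-like nuclei by 0.940 in the same way. These differences were not tested, and each fold alone missed the threshold. Of all genes tested, 10.4% in endothelial-like and 9.08% in macrophage-like nuclei had both KO libraries above every WT library. The share with both KO libraries below was 13.3% in adipocyte-like, 8.5% in inner cortex or X-zone-like and 11.5% in macrophage-like nuclei. It was 11.9% in T or NK cell-like and 10.2% in zona glomerulosa-like nuclei.

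The unassigned library, which enters no comparison, had an exact 95% Poisson interval that lay wholly above the highest WT library in 4 member and class pairs. It had 7.23 CPM of Spry4 in zona fasciculata-like nuclei, 8.61 CPM of Dusp4 in T or NK cell-like nuclei, 2.10 CPM of Etv4 in inner cortex or X-zone-like nuclei and 40.8 CPM of Etv5 in Schwann or sustentacular-like nuclei. For Dusp4, Etv4 and Etv5 in these classes the WT mean was 0 CPM. Any UMI in the unassigned library would meet the rule there, so these pairs show detection only.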

How the results depend on the processing

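No member passed in any class under the up to 16 alternatives that could be fitted there. Nuclei of at least 1000 genes gave no fit for pericyte or smooth muscle-like, Schwann or sustentacular-like and T or NK cell-like nuclei, leaving members and lists out of clustering gave none for inner cortex or X-zone-like nuclei, and 0 members passed the filter in T or NK cell-like nuclei without WT replicate 3. The lowest adjusted p was 0.0983 (Etv5 in zona glomerulosa-like nuclei without the filter, -0.50). Of 1318 recomputed folds and differences, 11 changed sign beyond 1 SE and 138 within it. The batch term stayed in the fits that leave out a library. Without KO replicate 1 or without WT replicate 1, the same contrast is left, KO replicate 2 against WT replicates 2 and 3. Without KO replicate 2, KO replicate 1 is set against WT replicate 1 alone. Over the fits that leave out 1 library, Etv5 (-0.31 with all libraries) ran from -0.75 to 0.035 in all nuclei and, from -0.44, from -0.93 to 0.079 in zona glomerulosa-like nuclei. Spred2 in Schwann or sustentacular-like nuclei (0.84) ran from -0.032 to 1.42. Spry2 ran from -0.031 to 2.16 in pericyte or smooth muscle-like and from -0.51 to 0.043 in zona glomerulosa-like nuclei, where it was 0.0074 with the unassigned library as KO. Spry4 in capsule or fibroblast-like nuclei (0.59) ran from -0.30 to 1.30, and the Spry2 difference of chromaffin-like minus zona fasciculata-like nuclei from -2.68 to 0.28. The cause was not tested.

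The counts of pathway list genes that passed were examined with alternatives chosen after seeing the data. In adipocyte-like nuclei the count of 1 became 0 with DESeq2, doublets kept, no batch term, nuclei of at least 1000 genes or the unassigned library in either group, 2 with no filter, and 0 to 4 with 1 library left out. For chromaffin-like nuclei 0 became 2 with DESeq2, 3 with members and lists out of clustering, 5 with no filter and 0 to 5 with 1 library left out. In all nuclei 0 became 3 with DESeq2, 5 with no filter and 0 to 3 with 1 library left out. In capsule or fibroblast-like nuclei 0 became 1 with doublets kept or with nuclei of at least 1000 genes, 2 with no filter and 0 to 4 with 1 library left out. With no filter the count was also 1 in macrophage-like and 2 in zona fasciculata-like and zona glomerulosa-like nuclei. With 1 library left out it was 0 to 3 in zona fasciculata-like and 0 to 1 in zona glomerulosa-like, macrophage-like, pericyte or smooth muscle-like and inner cortex or X-zone-like nuclei. The cause was not tested.

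Of 830 recomputed levels, 10 moved by over 1 SD. The class with the highest level was the same for 10 of 10 genes with doublets kept or members out of clustering and for 8 to 10 with 1 library left out. No paired analysis was possible because the labels give no replicate numbers, and the numbers used here follow accession order. The fit without WT replicate 3 has KO replicate 1 and WT replicate 1 in one batch and KO replicate 2 and WT replicate 2 in the other, the split that their zona fasciculata-like clusters also show, and 0 members passed in it. Etv4 passed the filter on low counts in 1 of the 11 classes and Dusp4 in 3, so their KO effect elsewhere was not tested.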
